A study of Mus musculus with 10 samples.

Results

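The genes described here encode the machinery of oxidative phosphorylation. They were chosen by name alone, as every gene on the array whose name began with Ndufa, Ndufb, Ndufc, Ndufs, Ndufv, Sdha, Sdhb, Sdhc, Sdhd, Uqcr, Cox4 to Cox8 or Atp5. The rule found 90 members on 134 probes, of 28033 genes on 41174 probes in all. By known function, 80 members are subunits, with 36 in complex I, 4 in complex II, 7 in complex III, 18 in complex IV and 15 in complex V. The other 10 carry such a name without being subunits. They are the assembly factors Ndufaf1, Ndufaf2, Ndufaf3, Ndufaf4, Sdhaf1 and Sdhaf2, the supercomplex factor Cox7a2l, Dmac2l and Dmac2 (listed on the array as Atp5s and Atp5sl), and Emc8 (listed as Cox4nb), a subunit of a membrane complex of the endoplasmic reticulum. Ndufa4 was counted with complex IV, where its protein sits. Atp5pb and Uqcr11 are listed on the array as Atp5f1 and Uqcr.

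Oxidative phosphorylation takes place in the inner mitochondrial membrane. Complex I takes electrons from NADH and complex II from succinate, ubiquinone carries them to complex III, cytochrome c carries them on to complex IV, and complex IV hands them to oxygen. Complexes I, III and IV pump protons as the electrons pass, and complex V, the ATP synthase, uses the returning protons to make ATP. Most subunits are encoded in the nucleus, a few of the catalytic ones in mitochondrial DNA, and complex II is the only one encoded wholly in the nucleus. In the small intestine, stem cells sit at the crypt base among Paneth cells, and the absorptive cells that derive from them burn fatty acids and glutamine.

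The study removed Lgr4 and Lgr5, receptors for the Wnt agonist R-spondin, and separately took R-spondin away. The question for these genes was whether they moved with the loss of receptor or ligand. Crypts, isolated from small intestine, came from mice with floxed alleles of both receptors and AhCre, a Cre that xenobiotics switch on (the crypt protocol names P450Cre), 1 day after induction. Their controls were wt crypts, for which the labels give no induction. Organoids, miniature epithelia grown from crypts in culture, came for the deletion from VillinCre_Lgr4fl/fl-Lgr5fl/fl mice, with VillinCre_wt organoids as controls. Villin drives Cre in the epithelium, and the labels give tamoxifen for 1 day to the wt cultures and deletion 1 day before sampling to the deleted ones. For the R-spondin pair, small intestinal organoids were passaged and then kept for 1 day in medium with EGF and Noggin alone (EN, 1 culture) or with R-spondin added (ENR, 1 culture). Their genotype is not given in the labels, nor is the number of mice behind any sample, so the p-values below measure the spread between these samples.

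There were 10 two-colour arrays. Deleted and wt crypt RNA shared each of 4 arrays, which made 2 biological replicates, each hybridised to 2 arrays with the dyes swapped. The 2 wt and 2 deleted organoid cultures, and the R-spondin pair, were each labelled with Cy5 against a commercial reference RNA in Cy3. In Cy5, 40.2% to 63.1% of gene spots were well above background. In Cy3 this was 48.9% to 60.8% on the crypt and R-spondin arrays but 3.66% to 4.26% on the 4 organoid deletion arrays, whose negative controls read 5883 to 6564 in Cy3 against 90 to 117 elsewhere. The deletion in organoids was therefore read from Cy5 alone. Changes are log2 values, and crypt and organoid tests are limma's, two-sided, with Benjamini-Hochberg adjustment over all genes tested. Lgr4 checked the labels, at -1.51 and -1.61 in the 2 crypt replicates and -3.57 in deleted organoids, and Lgr5 at -1.89 and -1.48 in crypts and -5.08 without R-spondin.

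Not all members could be read. The scanner software marks spots with uneven pixels or uneven surroundings as outliers, and these were left out. Member spots were marked more often than others on every array, at 29.1% against 6.94% of all gene spots on the most affected crypt array and 5.97% against 3.51% on the least affected organoid array. In crypts 71 members could be tested, 15 were lost to marked spots and 4 were not well above background. In organoids the numbers were 73, 13 and 4, and for the R-spondin pair 68, 19 and 3. The dim members were the tissue-restricted isoforms Cox7b2, Cox8b and Cox8c in all comparisons, and Cox4i2 in crypts and in the organoid deletion comparison. Cox7b2 and Cox8c are known from testis and Cox8b from muscle and fat.

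Promoters are shown for the 3 complex II genes that have one in the RefSeq table and for the pair Cox7a1 and Cox7a2. They were picked because Cox7a1, Sdhd and Sdhb were past 1.5-fold higher without R-spondin, in 1 culture against 1. There 5 of 68 members were past 1.5-fold higher and 1 lower, against 12.4% and 12.9% of all genes. By Cy5 alone Sdhd and Sdhb, at 0.32 and 0.42, were not past 1.5-fold. Each sequence is the 250 bases before the RefSeq start, 5′ to 3′ along the gene, with motif matches in capitals.
Sdha (GRCm38.p6, chr13:74350241-74350490, minus strand): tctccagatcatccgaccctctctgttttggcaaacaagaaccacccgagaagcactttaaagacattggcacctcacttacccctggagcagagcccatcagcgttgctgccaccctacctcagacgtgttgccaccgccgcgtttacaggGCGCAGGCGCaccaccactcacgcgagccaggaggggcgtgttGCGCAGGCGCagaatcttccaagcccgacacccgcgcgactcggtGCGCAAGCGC
Sdhb (GRCm38.p6, chr4:140961021-140961270, plus strand): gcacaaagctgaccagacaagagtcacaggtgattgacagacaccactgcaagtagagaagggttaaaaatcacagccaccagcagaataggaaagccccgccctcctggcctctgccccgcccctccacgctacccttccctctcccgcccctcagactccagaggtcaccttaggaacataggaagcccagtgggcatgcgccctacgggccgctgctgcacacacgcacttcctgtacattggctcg
Sdhd (GRCm38.p6, chr9:50603850-50604099, minus strand): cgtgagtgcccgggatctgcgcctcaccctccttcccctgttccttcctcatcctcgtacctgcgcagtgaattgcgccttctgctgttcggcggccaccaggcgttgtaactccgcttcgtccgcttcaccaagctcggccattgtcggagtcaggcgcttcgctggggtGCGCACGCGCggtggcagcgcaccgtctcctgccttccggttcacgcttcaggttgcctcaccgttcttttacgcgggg
Cox7a1 (GRCm38.p6, chr7:30183921-30184170, plus strand): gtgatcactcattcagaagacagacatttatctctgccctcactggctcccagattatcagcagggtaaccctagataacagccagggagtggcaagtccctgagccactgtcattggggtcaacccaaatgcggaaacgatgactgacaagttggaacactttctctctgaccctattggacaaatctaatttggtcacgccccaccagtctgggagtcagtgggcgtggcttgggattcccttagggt
Cox7a2 (GRCm38.p6, chr9:79759854-79760103, minus strand): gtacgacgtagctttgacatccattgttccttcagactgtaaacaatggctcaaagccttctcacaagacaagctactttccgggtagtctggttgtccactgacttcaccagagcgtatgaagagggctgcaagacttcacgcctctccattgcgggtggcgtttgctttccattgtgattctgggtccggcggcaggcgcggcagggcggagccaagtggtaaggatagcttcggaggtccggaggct

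The windows were searched on both strands for 4 motifs. They were GCGC followed by any base and TGCGC for NRF1, CCGGAAGT for the ETS family that includes GABP, AAGATGGCG for YY1, and TATAAA for the TATA box; the first 3 are known from promoters of mitochondrial genes. The table held promoters of 75 of the 90 members, and the search covered 300 bases, 250 before the start and 50 after it. NRF1 letters stood in 17 of 75 member promoters (22.7%) and in 4.78% of all 27025. YY1 letters stood in 7 (9.33% against 1.49%), ETS letters in 5 (6.67% against 4%) and TATA letters in 7 (9.33% against 14.2%). Sdha held 3 NRF1 matches, which begin 98, 55 and 10 bases before the start, and Sdhd held 1, at 79 bases. The windows of Sdhb, Cox7a1 and Cox7a2 held none of the 4 motifs, and no 2 different motifs overlapped in any member promoter. Of the 7 members with TATA letters, Cox7b2 and Cox8b are tissue-restricted isoforms. The others, Atp5l, Ndufa3, Ndufa7, Ndufb7 and Ndufs7, are not. The restricted isoforms Cox7a1 and Cox6b2 held no TATA letters, and Cox4i2, Cox6a2 and Cox8c had no promoter to search.

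In deleted crypts most members were slightly lower, but the 2 replicates differed. The median change of the 71 members was -0.14, against -0.02 over the 12204 genes tested. Of the members 48 were below 0 (67.6%) and 23 above, where 52.5% of all genes were below 0. The member median flipped to 0.17, with 52 above 0, when arrays were centred on their median in place of loess. That centring also moved all genes to 0.15. The member median was 0.00 in replicate 1 and -0.31 in replicate 2. No member passed limma's test at an adjusted p under 0.05, where 0% of all genes were called lower and 0.0492% higher. By limma's unadjusted p under 0.05, Dmac2l and Cox7a2l were lower (2 of 71, against 7.3% of all genes) and Cox6a2 and Sdhaf2 higher (2 of 71, against 6.43%). Both replicates were below 0 for 28 members (39.4%) against 33.1% of genes, and above 0 for 12 (16.9%) against 30.1%. In replicate 2 alone, 17 members were past 1.5-fold lower, or 23.9% against 18.2% of genes, and in replicate 1 a single member was, Cox7a2l.

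**Figure D1:**
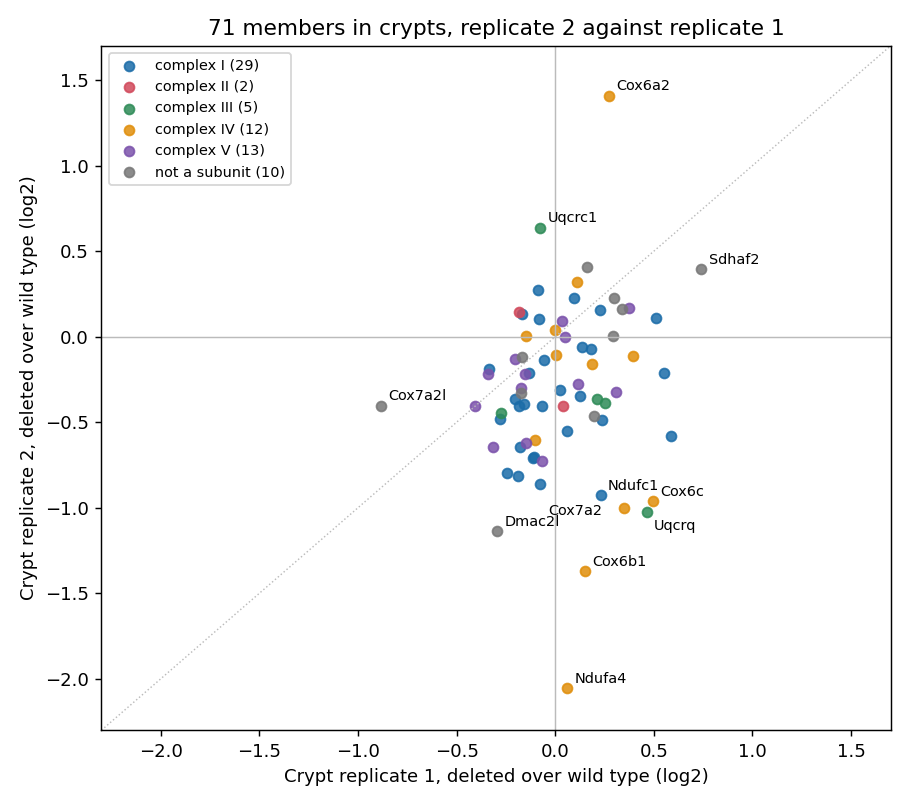
Change of each of the 71 tested members in crypt replicate 2 (vertical axis) against replicate 1 (horizontal axis), both deleted over wild type in log2, coloured by complex; the dotted line marks equal values. Ndufa4 and Cox6b1 lie near 0 in replicate 1 and at -2.05 and -1.37 in replicate 2, and Cox6a2 stands highest.

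The dyes bear on these values. On the replicate 1 array with deleted RNA in Cy3 the median of the 51 members with a value was -0.21, and on the array with deleted RNA in Cy5 it was 0.19 over 64 members. In replicate 2 the medians were -0.37 and -0.14, over 65 members each. For 36 members the probe used, the brightest of the gene, had a usable spot on all 4 arrays. Of these, 23 changed sign between the 2 arrays of replicate 1 and 8 between those of replicate 2, against 45.9% and 14.7% of all genes. With the dyes averaged, the 36 had medians of -0.07 in replicate 1 and -0.25 in replicate 2. All 4 arrays were below 0 for 1 member of 36, Dmac2l, against 17.4% of genes, and above 0 for 3, Cox6a2, Cox7c and Ndufaf3, against 16.3%. The other 35 members have at least 1 replicate value from a single dye orientation. That value carries the dye difference, whose part in the result was not tested.

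**Figure D2:**
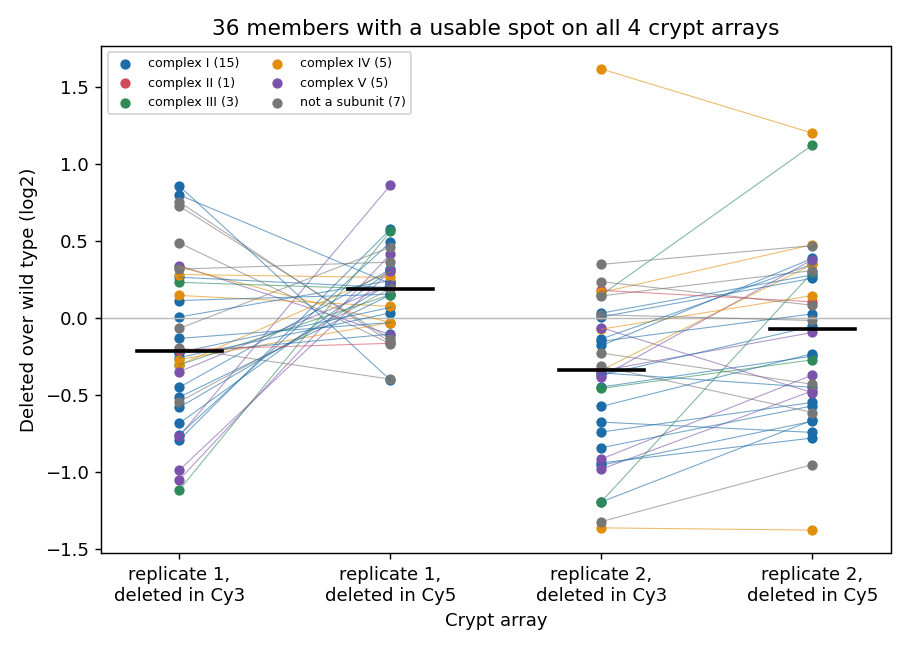
Values of the 36 members whose brightest probe had a usable spot on all 4 crypt arrays (horizontal axis), deleted over wild type in log2 (vertical axis); thin lines join a member's 2 dye-swapped arrays and black bars are medians. The medians are -0.21 and 0.19 in replicate 1 and -0.34 and -0.07 in replicate 2.

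By complex, the crypt medians were -0.17 for 29 complex I subunits (20 below 0), -0.10 for 2 of complex II, -0.08 for 5 of complex III, -0.06 for 12 of complex IV and -0.18 for 13 of complex V (10 below 0). The 10 members that are not subunits had a median of 0.01, with 5 on each side of 0. The lowest members whose replicates had one sign were Dmac2l at -0.72, Cox7a2l at -0.64, Ndufa9 at -0.52, Ndufc2 at -0.50, Atp5j at -0.48 and Ndufs6 at -0.47. The highest were Cox6a2 at 0.84, Sdhaf2 at 0.57, Ndufb7 at 0.31, Sdhaf1 at 0.28, Atp5b at 0.27 and Emc8 at 0.26. Their smallest limma adjusted p was 0.339.

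Dmac2l read -0.19 and -0.40 on the arrays of replicate 1 and -1.32 and -0.95 on those of replicate 2. Every array put it lower in deleted crypts, and replicate 2 was farther from 0 than replicate 1. Cox7a2l, which joins complexes III and IV into supercomplexes, read -0.88 on the single usable array of replicate 1 and -0.34 and -0.47 in replicate 2. Ndufs6, an accessory subunit of the NADH module of complex I, read -0.22 and 0.07 in replicate 1 and -0.94 and -0.78 in replicate 2. Its other 2 probes read -0.82 and -0.78, and -0.88 and -0.75, in replicate 2. All 3 probes therefore put Ndufs6 low in replicate 2, while in replicate 1 they lay on either side of 0.

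The largest differences between the replicates, those of Ndufa4 and Cox6b1, were in complex IV. Ndufa4, an outer subunit, read 0.06 in replicate 1, from a single array, and -2.12 and -1.99 in replicate 2. Cox6b1, on the outer face of complex IV, read 0.33 and -0.03 in replicate 1 and -1.36 and -1.38 in replicate 2. Cox7a2, the widely expressed partner of Cox7a1, read 0.35 in replicate 1 and -1.03 and -0.97 in replicate 2, and its second probe read 0.31 and 0.06 against -1.04 and -0.73. For these genes the replicates do not overlap, and the 2 arrays of replicate 2 lie close together. Cox6c, another small subunit, read 0.50 and then -1.08 and -0.85. Outside complex IV, Uqcrq of complex III had a difference of similar size, at 0.46 and -1.02, from a single array in each replicate. Cox6a2, the isoform of heart and skeletal muscle, was opposite in direction. Replicate 1 gave 0.28 and 0.26, and replicate 2 gave 1.62 and 1.20, all above 0. Its widely expressed partner Cox6a1 had no usable value in crypts. The muscle marker Acta1 was at 2.15 and 1.71 in the 2 replicates, and it was the single one of 7 markers of striated muscle and brown fat tested there; Ckm, Myh7 and Tnnt3 were not. The part of such cells in the Cox6a2 value was not tested.

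The subunits encoded in mitochondrial DNA showed the same split. Of 13 such genes 4 were on the array. COX2, the subunit of complex IV that receives electrons from cytochrome c, had a replicate 1 value of 0.10 and a replicate 2 value of -2.32. ATP6, of the proton channel of complex V, read 0.17 and -2.01, ND4 of complex I read 0.11 and -1.19, and CYTB of complex III read 0.19 and -0.06. Their median was 0.14 in replicate 1 and -1.60 in replicate 2, and limma's smallest adjusted p among them was 0.423.

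Of complex II, Sdha read -0.18 and 0.14 in the 2 replicates and Sdhb 0.04 and -0.41, and Sdhc and Sdhd could not be tested. Among isoform pairs, Cox4i1, the widely expressed form of subunit IV, read -0.10 and -0.60, while Cox6b2, the testis partner of Cox6b1, read -0.00 and 0.04. Of the 3 genes for subunit c of complex V, which encode the same mature protein, Atp5g2 read -0.34 and -0.22, Atp5g3 read 0.05 and -0.00, and Atp5g1 was not tested.

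Other changes moved with the deletion in crypts. Immune markers were above 0 for 10 of 10 genes, with a median of 1.79. The summed signal of the 8 with complete spots was 9240 to 39450 in deleted against 2989 to 9381 in wt crypts. Arrays differed in brightness and each held both RNAs, so such sums compare within an array. The immune sum was higher in deleted crypts on every array. Stem cell markers, which include the deleted gene Lgr5, were below 0 for 8 of 8, with a median of -1.08. Their summed signal over 6 genes was 2452 to 10490 against 4536 to 18430, lower in deleted crypts on every array. Paneth markers were below 0 for 5 of 5 in the mean of the replicates (median -0.79), but Lyz1 and Mmp7 were at 0.14 and 0.00 in replicate 2. Array by array, the summed signal of 3 genes was 44140, 55890, 234600 and 243500 in deleted crypts. In wt crypts it was 171800, 142800, 308600 and 233100, so the last array went the other way. Stroma markers were below 0 for 5 of 6 (median -0.45). Their summed signal by array was 4520, 3961, 11140 and 10600 against 3635, 4773, 13960 and 12030, higher in deleted crypts on the first array only. Enterocyte markers were above 0 for 8 of 8 (median 0.63). Their summed signal over 4 genes was 52880 to 94400 against 28320 to 80710, higher in deleted crypts on every array. In RNA from whole crypts, fewer cells of a type and less RNA per cell cannot be told apart. The part of these cell types in the member values was not tested.

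In deleted organoids the members leaned the other way, by a small amount. On the Cy5 signal 60 of 73 members were above 0 (82.2%), against 52.5% of 13311 genes. The medians were 0.16 for the members and 0.02 for all genes. With marked spots kept the median was 0.0315, with 56 of 86 above 0. Slide 1, which held the first culture of each group, gave a median of 0.11 and slide 2 gave 0.23. Both slides were above 0 for 41 members (56.2%) against 34% of genes, and below 0 for 5 against 30.1%. By ratio to the reference, whose Cy3 channel was poor here, the median was 0.08 with 49 of 69 members above 0. No member passed limma's test at an adjusted p under 0.05, where 0.00751% of genes were called lower and 0.0301% higher. By limma's unadjusted p under 0.05, 0 members were lower, against 4.25% of genes, and Sdhc alone was higher, against 3.49%. Each slide held 1 culture of each group, and with the slide as a block 7 members were higher at that p and none passed the adjusted threshold. The share of all genes at that p was not computed with the block, so the 7 cannot be read against it. The block also raised adjusted calls over all genes, from 1 lower and 4 higher to 193 and 141. Both deleted cultures lay above both wt cultures for 15 members (20.5%), against 18.2% of genes, and below both for 2 (2.74%), against 18.5%. The share separated upwards was thus near that of all genes, and few members were separated downwards.

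**Figure D3:**
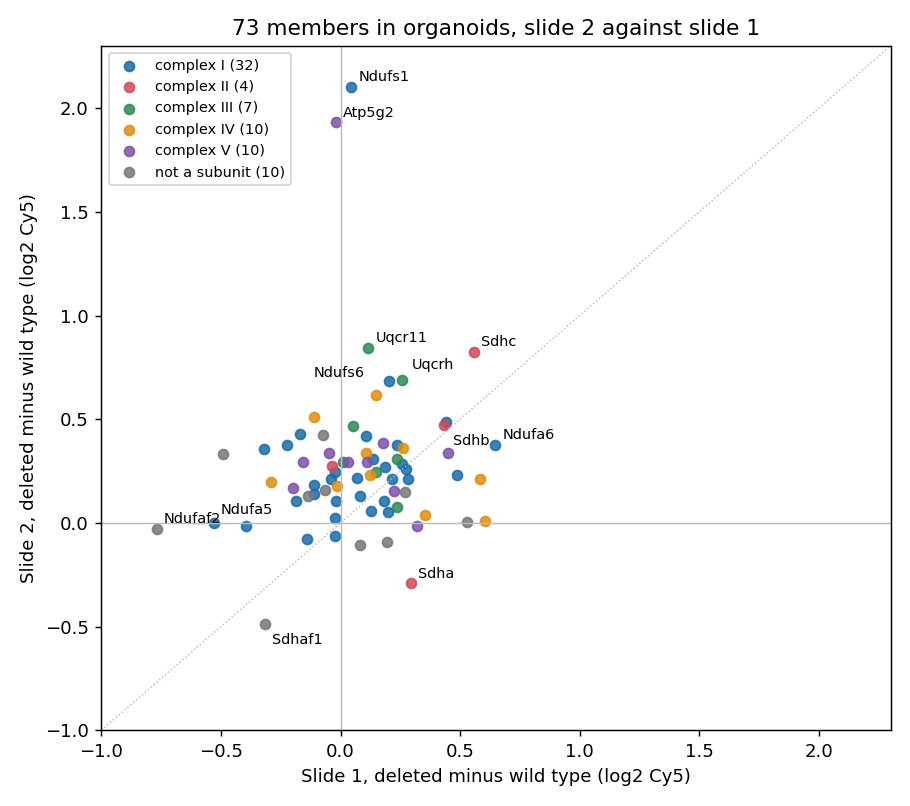
Change of each of the 73 tested members on slide 2 (vertical axis) against slide 1 (horizontal axis), deleted minus wild type in log2 Cy5, 1 culture of each group per slide, coloured by complex. Most points lie above 0 on slide 2, Sdhc lies at 0.56 and 0.83, and Ndufs1 and Atp5g2 stand out on slide 2 alone.

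Each complex had a median above 0 in deleted organoids. It was 0.13 for 32 complex I subunits (26 above 0), 0.29 for the 4 of complex II, 0.26 for 7 of complex III (7 above 0, on both slides), 0.21 for 10 of complex IV (9 above 0) and 0.18 for 10 of complex V (9 above 0). The 10 members that are not subunits had a median of 0.02, again with 5 on each side. The 7 catalytic core subunits of complex I had a median of 0.23. All these values are by Cy5 without marked spots. By ratio the medians of complexes I to V were 0.04, 0.18, 0.12 (over 5 genes), 0.15 and 0.06. With marked spots kept, Uqcrh and Uqcrq of complex III went to -0.03 and -0.06, so its subunits were no longer all above 0.

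Complex II, which is also an enzyme of the tricarboxylic acid cycle, had the highest median of the complexes in deleted organoids. Sdhc, a membrane anchor of complex II, had log2 signals of 12.29 and 11.93 in the wt cultures and 12.84 and 12.76 in the deleted ones. Both deleted cultures were above both wt cultures, a difference of 0.69 (SE 0.23, limma unadjusted p 0.0245, adjusted p 0.555), but by ratio it was 0.09. Sdhb, the iron-sulfur subunit, had 13.74 and 13.90 against 14.17 and 14.37, a difference of 0.45. Sdhd, the other anchor, had 15.80 and 15.24 against 15.77 and 15.52, and the groups overlapped. Sdha, the flavoprotein that oxidises succinate, had 12.63 and 12.70 against 12.92 and 12.41, and its slides went opposite ways, at 0.30 and -0.29.

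Among the others with separated cultures, Ndufa6 had 13.85 and 13.70 against 14.50 and 14.08, a difference of 0.51. Uqcr11, a small subunit of complex III, differed by 0.48. Ndufs6 differed by 0.44 on its brightest probe and by 0.30 and 0.09 on its others. The smallest upward separations were Ndufv3 at 0.09, Ndufa10 at 0.14, Ndufa7 at 0.14 and Cox8a at 0.22. The members separated downwards were the assembly factor Ndufaf2 at -0.40 and the subunit Ndufc1 at -0.11. Ndufaf2 had 12.30 and 12.28 in wt against 11.52 and 12.25 in deleted cultures, so that almost all of its difference came from the first deleted culture.

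The 2 members with the largest differences rested on 1 low spot. Ndufs1, the largest core subunit of complex I, had 14.19 and 10.85 in the wt cultures and 14.24 and 12.95 in the deleted ones, a difference of 1.07 with SE 1.05. Atp5g2, which encodes the ring subunit c of complex V, had 15.08 and 12.31 against 15.06 and 14.24, and its second probe differed by 0.10. Without the second wt culture Atp5g2 went to -0.43, and without the first it went to 2.34. Each of these values rests on a single wt culture.

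Other isoforms differed less in deleted organoids. Cox6a2 was at 0.31 (slides 0.61 and 0.01), Cox6b2 at 0.08, Cox6b1 at 0.18, Cox7a2 at 0.20, Atp5g1 at 0.16 and Ndufa4 at -0.05, and the culture groups overlapped for all 6.

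Marker lists also moved in deleted organoids. Stem cell markers were below 0 for 6 of 6, with a summed Cy5 signal of 11420 and 18260 in wt against 2443 and 5214 in deleted cultures. Enterocyte markers were above 0 for 7 of 8, with sums of 69110 and 55130 against 97130 and 100900. Paneth markers were below 0 for 6 of 6, with sums that overlapped, at 75180 and 265700 against 59820 and 151800. Immune markers stayed dim, with sums of 869 to 941 over 4 genes. The part of the epithelial cell types in the member values was not tested.

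The crypt and organoid changes were compared in a single model. The 61 members in it had a median difference, crypts minus organoids, of -0.34, with 51 below 0, against -0.03 over 11376 genes. This rests on loess in crypts. With the crypt arrays centred on their median it was -0.01 with 31 of 61 below 0, against 0.15 over all genes, and with marked spots kept it was -0.10 with 56 of 86 below 0. No member passed limma's test of the difference under any of these settings. With loess the smallest adjusted p was 0.782 and 2 members, Cox7a2l and Ndufa9, had an unadjusted p under 0.05, where 5.93% of genes did. A difference between crypts and organoids was therefore not shown for any single member.

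Without R-spondin the subunits were higher almost throughout, in a comparison of 1 culture with 1 that has no replicate check. Of 68 members 60 were above 0 (88.2%), against 57.4% of 17163 genes. The medians were 0.30 for the members and 0.07 for all genes. Past 1.5-fold, 5 members were higher and 1 lower, against 12.4% and 12.9% of genes. The count of 5 was 2 of 69 by Cy5 alone, where 2384 of 17619 genes were past 1.5-fold higher. It was 10 with the scanner's processed signals and 21 with median centring, for which the share of all genes was not computed. By Cy5 alone, without the reference channel, the median was 0.13 against 0.05 over all genes. There 47 of 69 members were above 0 (68.1%), against 55.5% of genes.

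**Figure D4:**
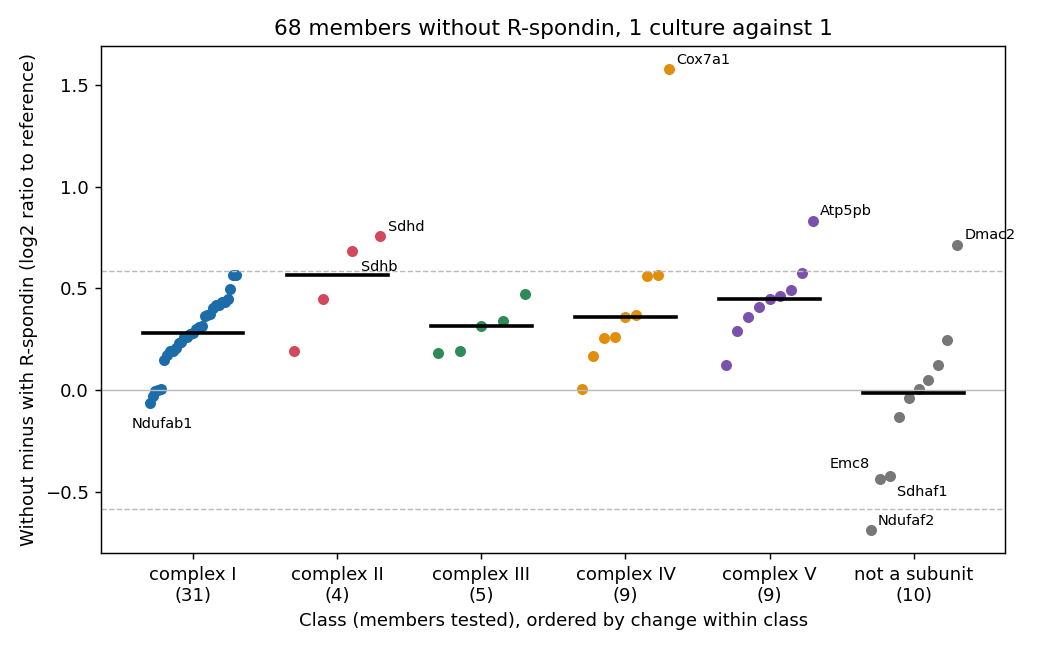
Change of the 68 tested members without R-spondin (vertical axis, log2 ratio to reference, without minus with) by class (horizontal axis, members ordered by change within a class); black bars are medians and dashed lines mark 1.5-fold. The 5 complexes have medians of 0.28 to 0.57, and the members that are not subunits have a median of -0.02.

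Of 58 subunits 55 were above 0, with a median of 0.33, whereas the 10 non-subunits had a median of -0.02 with 5 on each side. By Cy5 alone the gap was smaller, with medians of 0.17 for 59 subunits (42 above 0) and 0.04 for the 10 others. By ratio the medians were 0.28 for 31 complex I subunits (28 above 0), 0.57 for 4 of complex II, 0.31 for 5 of complex III, 0.36 for 9 of complex IV and 0.45 for 9 of complex V, and in the last 4 every tested subunit was above 0. By Cy5 alone the order differed, with 0.37 for complex II, 0.31 for complex IV, 0.22 for complex V, 0.06 for complex I and 0.01 for complex III.

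Cox7a1, the isoform of complex IV best known from heart, muscle and brown fat, was the highest member. Its Cy5 signal was 108000 without R-spondin and 25882 with it, and its ratio to the reference RNA was 4.53 against 2.95, a change of 1.58 or 2.99-fold. By Cy5 alone the change was 1.59. In deleted organoids its log2 signals were 14.54 and 14.14 in wt against 15.12 and 14.35, and in crypts it read 0.39 and -0.11. Its groups overlapped in deleted organoids and its crypt replicates had opposite signs. Cox7a2 changed by 0.56 without R-spondin. Of 6 tested markers of striated muscle and brown fat 4 were above 0. Their summed Cy5 signal was 3494 in EN and 2196 in ENR, with Acta1 at 1.08 and Myh7 at -0.43, and their part in the Cox7a1 value was not tested.

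After Cox7a1 came Atp5pb of complex V at 0.83, and then Sdhd of complex II. Sdhd had ratios of 1.97 without and 1.21 with R-spondin, a change of 0.76. Sdhb had 1.92 and 1.24, a change of 0.68, Sdhc changed by 0.45 and Sdha by 0.19. By Cy5 alone these were 0.32, 0.42, 0.52 and -0.02. Atp5pb, the b subunit in the stalk of complex V, changed by 0.83 with ratios of 1.06 and 0.22, and its other probes gave 0.69 and 0.17. Atp5g1, another gene for subunit c, changed by 0.58, and Atp5g2 by 0.29. Cox6b1 changed by 0.25, Ndufa4 by 0.17, Cox6b2 by 0.01 and Cox4i2 by 0.26, the last at Cy5 signals of 195 and 175.5. Dmac2 changed by 0.72 at a low Cy5 signal of 354.5 and 254.

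The lowest members were mostly assembly factors. Ndufaf2, an assembly factor of complex I, had ratios of -0.55 without and 0.14 with R-spondin, a change of -0.69 and -1.04 by Cy5 alone. Emc8 changed by -0.43, Sdhaf1, an assembly factor of complex II, by -0.42, Ndufaf4 by -0.13 and Ndufaf1 by -0.04. The lowest subunit was Ndufab1, the acyl carrier protein of complex I, at -0.06. Over the broader list of assembly factors, which includes members, 21 of 40 were above 0, with a median of 0.02.

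Most tested members read higher in organoid RNA than in the reference RNA, in a single culture per array. A gene was tested only if its organoid signal was well above background on either array. Members bright in the reference alone were therefore left out. On the array without R-spondin 61 of 68 members were above the reference, with a median of 0.72, and on the array with R-spondin 61 of 68, with a median of 0.44. Over all genes 54.1% and 53.8% were above it. Atp5a1, a subunit of complex V, was at 2.41 and 1.95.

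Neighbouring pathways were described from lists. Fatty acid oxidation genes were above 0 for 14 of 15 without R-spondin (median 0.71), for 12 of 14 in deleted organoids (median 0.30) and for 9 of 14 in crypts (median 0.09). The carnitine carrier gene Slc25a20 was at 1.21 without R-spondin. Glycolysis genes had medians of 0.30 in crypts, 0.39 in deleted organoids and -0.26 without R-spondin. For tricarboxylic acid cycle enzymes the medians were -0.17, 0.18 and 0.23, and for cytochrome c and electron carriers 0.04, 0.21 and 0.57. Regulators of mitochondrial biogenesis had -0.27, -0.03 and -0.09. The mitochondrially encoded genes had -0.73, -0.05 (3 genes) and 0.67. No gene of these lists passed limma's adjusted threshold in crypts or organoids.

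**Figure D5:**
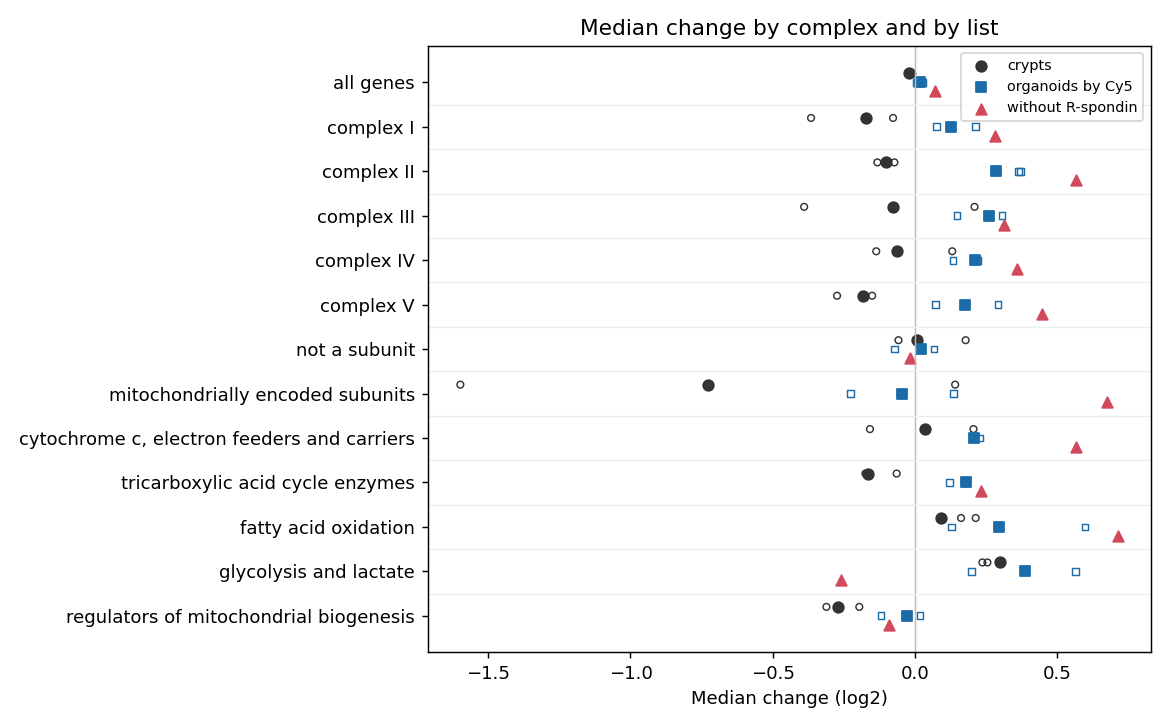
Median change (horizontal axis, log2) of each complex and list (vertical axis) in crypts, deleted organoids and without R-spondin; filled symbols are medians of the change and small open symbols those of each crypt replicate or organoid slide. With loess, the 5 complexes lie left of 0 in crypts (the crypt median of all members turns to 0.17 with median centring) and right of 0 in both organoid comparisons, and the widest spread between crypt replicates is in the mitochondrially encoded subunits, at 0.14 and -1.60.

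Stem cell markers without R-spondin were below 0 for 8 of 8 (median -2.73, summed Cy5 signal 3342 without and 36160 with). Enterocyte markers were above 0 for 4 of 5 (sums 140100 and 51270), and Paneth markers below 0 for 4 of 5. Goblet markers were above 0 for 4 of 6, with sums of 819300 and 238300. Their part in the member values was not tested.

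Of the 53 members tested in all 3 comparisons, 24 were below 0 in crypts and above 0 in both organoid comparisons (45.3%), against 15.6% of 10807 genes. Among the 43 subunits of these it was 22 (51.2%) and among the 10 non-subunits 2. Both organoid comparisons were above 0 for 34 of the 43 subunits (79.1%) and 4 of the 10 others, against 40.3% of genes. The crypt signs are those under loess, and with median centring 52 of the 71 members tested there were above 0.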

How the data were processed

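Arrays of 1 design (10) were read from the deposited scanner files, whose raw and background values are intensity; per the file headers the authors used Agilent Feature Extraction 10.5.1.1, while the submitters' processing notes name 8.5.1.1. The deposited series matrix holds log10 ratios, as the authors' software gave them, and served as an alternative. Organoid deletion files hold no gene names, which were taken by probe from the other files. With limma 3.58.1 in R 4.3.3 with the data.table package (version 1.17.8), marked spots were left out, background was corrected by normexp (offset 50), and ratios were loess-normalised within arrays or Cy5 was quantile-normalised between arrays. Probes were kept if all arrays of any one group read them as well above background, and the brightest probe stood for a gene. Dye-swapped crypt arrays were averaged to 2 replicates, tested against 0 with 1 residual degree of freedom; a replicate with 1 usable array took that value. Deleted and wt organoids were 2 against 2, and the R-spondin pair had no test. The threshold was an adjusted p of 0.05. Named members were, per comparison, the 6 highest and 6 lowest whose replicates or cultures did not disagree, tissue isoforms with their partners, and complex II; others named were chosen after their values were seen. Members and lists were chosen with earlier results of these data known. The steps were tested on simulated data. Promoters are RefSeq's, GRCm38.p6. The number of arrays limits the precision. Array coordinates (mm9) were not used. Some results withheld for evaluation are not reported here.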

Additional observations from a re-analysis of the deposited data

Results flagged for a closer look

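These 6 members had both crypt replicates on one side of 0 and both deleted organoid cultures on the other side of both wt cultures. Each was below 0 in crypts and higher in deleted organoids, and the difference between the 2 effects, crypts minus organoids, was tested in a single limma model. It was -0.91 for Cox7a2l (limma adjusted p 0.782) and -0.91 for Ndufs6 (0.842). It was -0.82 for Ndufa9 (0.807), -0.52 for Ndufa10 (0.886), -0.44 for Ndufa7 (0.893) and -0.42 for Ndufa3 (0.893). Of the 61 members tested in both, these 6 are 9.84%, against 3.21% of 11376 genes that were lower in crypts and higher in organoids by the same rule; the opposite held for 0 members and 2.83% of genes. For Ndufs6 and Ndufa3 the brightest usable probe, and so the probe used, differed between crypts and organoids. The organoid probe of Ndufa3 was dim, with Cy5 signals of 146.5 to 185, and its organoid change was 0.25, or 1.07 with marked spots kept. With median centring in crypts the member median of this difference went from -0.34 to -0.01. None passed, 5 of the 6 are accessory subunits of complex I, and in crypts Cox7a2l, Ndufa9 and Ndufa10 rest on a single dye orientation in 1 replicate.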

How the results depend on the processing

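The median change of the members was recomputed under 12 alternatives in crypts, 16 in organoids and 8 for the R-spondin pair. Processed signals and the series matrix gave the same median, -0.06 in crypts and 0.32 for the R-spondin pair. They are not separate checks. In crypts the member median ran from -0.33 to 0.17. Centring on the median in place of loess gave 0.17, but moved the median of all genes to 0.15, so the members stood 0.02 above it. In that setting limma called 1 of 71 members higher, Sdhaf2 (adjusted p 0.0262). Over all genes it called 279 higher and 55 lower. Without replicate 1 or 2 the crypt median was -0.33 and -0.00, with 0 members called; the 2 fits take their spread from organoid arrays. Calls over all genes in crypts, 0 lower and 6 higher, ran from 0 to 257 lower and 0 to 364 higher over the alternatives, highest with 4 arrays and a random block; processed signals gave 159 and 295. With only probes usable on all 4 arrays, chosen after seeing the data, it was -0.08 over 42 members. In organoids the median stayed above 0, from 0.03 to 0.23. With marked spots kept it was 0.0315, with 56 of 86 members above 0. Leaving out 1 culture gave 0.11 to 0.18. With the slide as a replicate block the median was 0.16 and no member was called. At limma's unadjusted p under 0.05, 7 members instead of 1 were higher, a count with no share of all genes beside it. Adjusted calls over all genes went with the block from 1 lower and 4 higher to 193 and 141. Processed signals gave 48 and 40, and the ratio 0 and 0. Deviations of same-slide cultures correlated at 0.53 across genes. Leaving out members whose wt cultures differed by over 1 log2 unit, also chosen afterwards, gave 0.16. The difference between crypts and organoids, a median of -0.34, was -0.00546 with median centring in crypts and -0.0997 with marked spots kept, and still -0.34 with the same probe in both (53 members); these settings were also chosen afterwards. Without R-spondin the median stayed above 0, at 0.13 by Cy5 alone and 0.47 with median centring. Members past 1.5-fold higher, 5 in the report, were 9 with marked spots kept, 2 by Cy5 alone and 21 with median centring. They were 10 with processed signals, and likewise with the series matrix. Members past 1.5-fold lower were 2 by Cy5 alone and 0 with median centring. By Cy5 alone 2384 of 17619 genes were past 1.5-fold higher and 2514 lower. For the other alternatives the share of all genes was not computed, so these counts cannot be read against it. Named single members changed sign in 14 of 252 crypt, 25 of 303 organoid and 6 of 158 R-spondin values. Many of them were named for agreeing replicates, separated cultures or extreme changes, which makes sign changes rare beforehand. Some settings, such as limma's mean-variance trend, leave the change itself as it was. These counts therefore do not measure stability. The causes of the shifts between settings were not tested. Few arrays, marked spots and, in crypts, single dye orientations limit all these values.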

Other observations

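Genes of the same complexes that the naming rule misses, because the array lists them under older names, gave these changes in crypts, deleted organoids and without R-spondin. Atp5md, of complex V, was at 0.22, 0.18 and 0.40. Ndufb1, of complex I, was at -0.09, 0.22 and -0.21. Uqcr10, of complex III, was at -0.18 in crypts and 0.38 in organoids. Atp5mpl, of complex V, was at -0.50, 0.01 and 0.03. The assembly factor Ndufaf7 was at -0.14, -0.04 and -0.67, and Sdhaf3 at -0.62, -0.20 and 0.30. None of these was counted among the members.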
